A study of Mus musculus with 6 samples.

Results

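Edf1, also known as multiprotein bridging factor, is a small coactivator that has been described to link gene-specific transcription factors to the TATA-binding protein. The genes examined here encode the partners it has been reported to bind, or the dimer partners of those: the fatty acid receptors Ppara, Ppard and Pparg, the oxysterol (liver X) receptors Nr1h2 and Nr1h3, the retinoid X receptors Rxra, Rxrb and Rxrg, the TATA-binding protein Tbp, and the cyclic AMP response factor Creb1. They were chosen by name, and all 10 were found among the 22851 gene symbols of the table. The libraries came from cultured cells of C57BL/6J mice, with 3 libraries of wild-type (WT) cells and 3 of cells from Edf1 knockout (KO) mice made with CRISPR/Cas9. In both genotypes the radial glia, the progenitors that line the brain ventricles, were taken on postnatal days 0 to 3 and grown in 10% serum. They were then kept without serum for 6 days to form multiciliated ependymal cells. The labels do not name a targeted exon, the number of mice behind each library or their sex.

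PPAR and LXR proteins bind DNA as heterodimers with an RXR. When a lipid ligand enters the pocket, corepressors are exchanged for coactivators, and genes of fatty acid oxidation, lipid storage or cholesterol export are transcribed. TBP nucleates the basal transcription complex at the core promoter. CREB1 binds the cyclic AMP response element (CRE) and becomes active when kinases phosphorylate it. In the brain, PPARs and LXRs are known for lipid handling in glia and for restraint of inflammation in microglia.

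On GRCm38 (GENCODE M21, strand in brackets) the receptor genes of the RXR family lie as Rxra at chr2:27676440-27762957 (plus), Rxrb at chr17:34031812-34038399 (plus) and Rxrg at chr1:167598384-167639623 (plus). The PPAR genes lie as Ppara at chr15:85734983-85802819 (plus), Ppard at chr17:28232700-28301474 (plus) and Pparg at chr6:115360951-115490399 (plus). The LXR genes lie as Nr1h2 at chr7:44549616-44553951 (minus) and Nr1h3 at chr2:91184061-91202834 (minus), and the remaining members as Tbp at chr17:15499888-15528379 (plus) and Creb1 at chr1:64532645-64604548 (plus). The targeted gene is Edf1 at chr2:25557847-25562082 (plus).

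The targeted transcript had 80.2 to 85.9 CPM (counts scaled to composition-adjusted library sizes) in WT and 9.84 to 13.2 CPM in KO, a log2 fold change of -2.85 (SE 0.091), and the 3 KO libraries were far below the 3 WT libraries. Of the 31-base stretches (31-mers) of Edf1, 14.8% also occur in other annotated genes (Gm11964 and Gm12274). Some of the reads left in KO may therefore come from other loci, which was not tested. Total counts were 13071766 to 28087006 per library, the lowest in WT replicate 2, which also stood apart from the other WT libraries on the second principal component (16.1% of the variance). Summed markers of multiciliated ependymal cells were 2151 to 2288 CPM in WT and 1266 to 1337 CPM in KO. At an adjusted p-value under 0.05, 10 of 10 genes were lower, against 14.2% of all tested genes. Summed radial glia and astrocyte markers were 10802 to 11171 CPM in WT and 11777 to 12276 CPM in KO, so markers of both cell types were present in all 6 libraries. Of these 10 genes, 3 were called higher and 1, Gfap, lower. Vim made up much of the sum (mean 6273 CPM in WT and 6849 CPM in KO) and was not called (edgeR adjusted p = 0.0723). In these bulk libraries, fewer cells of a type and less RNA per cell cannot be told apart. The design text calls the replicates biological without saying whether they came from separate animals, so the p-values measure the spread between these libraries.

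Of the 10 genes, 1 was called lower and 0 were called higher in KO by the quasi-likelihood test of edgeR (adjusted p under 0.05). Over all 14243 tested genes the same test called 26.9%, with 14.2% lower and 12.7% higher, so the share among the 10 was below the background. By DESeq2 1 of the 10 was also called lower and 0 higher. At an unadjusted p under 0.05, 2 were lower and 0 higher by edgeR. The median log2 fold change of the 10 was 0.0052, against 0.0029 for all tested genes, and the median absolute value was 0.14, against 0.15. The genotypes did not overlap for 4 of the 10, against 43.3% of all tested genes.

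**Figure D1:**
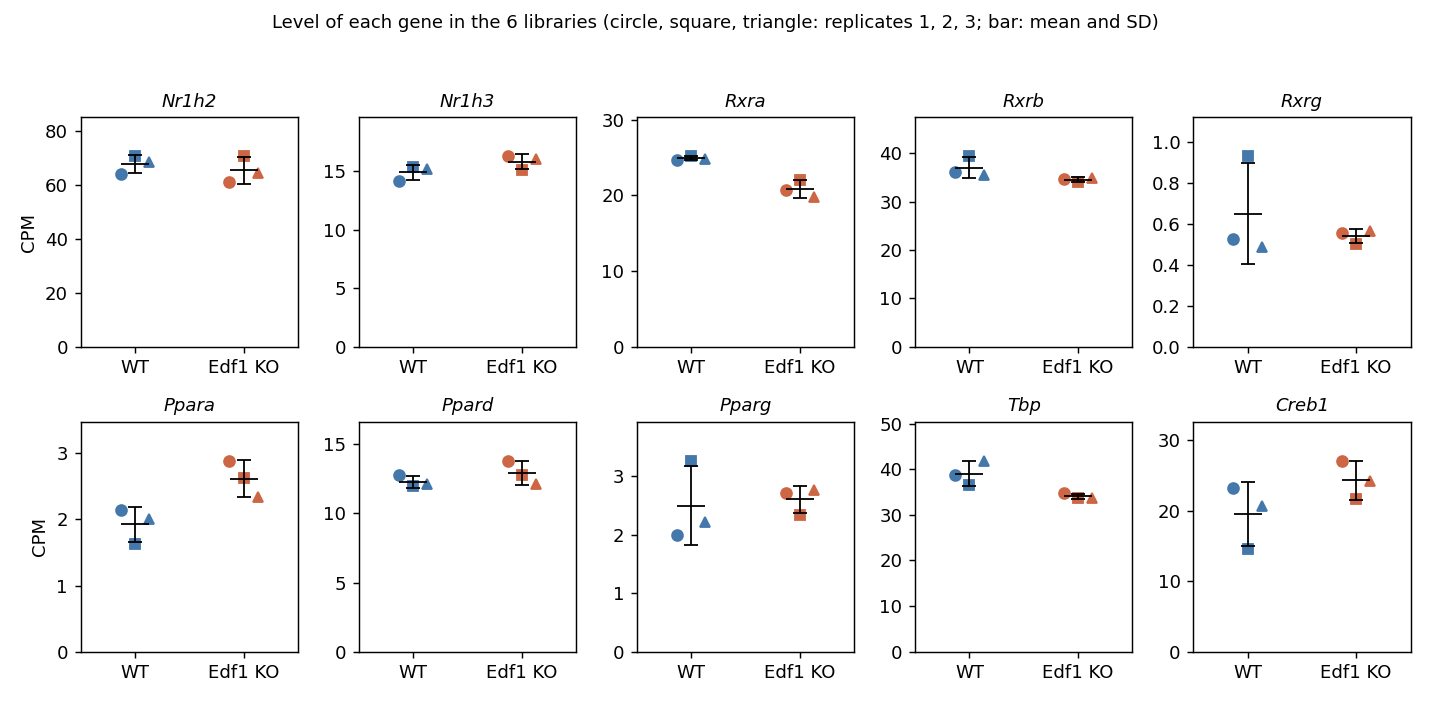
Level of each of the 10 genes in the 6 libraries, in CPM on a linear axis that starts at 0 (blue, WT; orange, Edf1 KO; circle, square and triangle, replicates 1, 2 and 3; bar, mean ± SD, n = 3). Rxra, Rxrb and Tbp sit lower and Ppara higher in all KO libraries than in any WT library, and the other 6 genes overlap.

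The RXR genes encode the common heterodimer partner. Rxra, the retinoid X receptor alpha gene, had 24.7, 25.3 and 24.8 CPM in WT replicates 1, 2 and 3 and 20.7, 22.1 and 19.8 CPM in KO replicates 1, 2 and 3. Every KO library was below every WT library. Rxra fell by 0.26 on the log2 scale (SE 0.077, 95% interval -0.43 to -0.093, edgeR adjusted p = 0.025), a decrease to 0.835 of the WT level. The call was lost without WT replicate 1 (adjusted p-value 0.0737), WT replicate 3 (0.0542), KO replicate 1 (0.0706) or KO replicate 3 (0.117), all by edgeR. The value itself stayed between -0.32 and -0.22 in all 15 alternatives.

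Rxrb, which encodes the beta receptor, had 36.01, 39.5 and 35.4 CPM in WT and 34.6, 33.9 and 34.9 CPM in KO. The KO libraries were again below the WT libraries, but only by a narrow gap, and the log2 fold change of -0.095 (95% interval -0.25 to 0.055, edgeR adjusted p = 0.343) did not pass. Rxrg, the gamma receptor gene of muscle and some neurons, was close to the limit of detection with 14, 12 and 9 counts in WT and 9, 9 and 16 counts in KO, which overlap. Its 95% interval of -1.02 to 0.67 excludes little, and its direction turned without WT replicate 2 (0.090). Per kilobase of transcript, Rxrb made up 72.3% ± 0.54 of the summed RXR level in WT and 74.4% ± 1.21 in KO (SD, n = 3). Rxra made up 26.1% ± 1.04 and 24.1% ± 1.30. The exact two-sided permutation test gave p = 0.1 for the Rxrb share, the smallest that 3 against 3 libraries allow, and p = 0.2 for the Rxra share. These shares use the longest annotated transcript and depend on that length. With counts not divided by length, Rxrb made up 59.1% in WT and 61.7% in KO (exact permutation p = 0.2).

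The sequence upstream of the second annotated Rxra start is shown because Rxra was the member that passed the test and this window holds a recognition half-site of its own protein family. It is taken from RefSeq on GRCm38.p6 at chr2:27709042-27709291, plus strand, 5′ to 3′ and ending at the base before the start. Capitals mark AGGTCA, the nuclear receptor half-site, on either strand.
Rxra: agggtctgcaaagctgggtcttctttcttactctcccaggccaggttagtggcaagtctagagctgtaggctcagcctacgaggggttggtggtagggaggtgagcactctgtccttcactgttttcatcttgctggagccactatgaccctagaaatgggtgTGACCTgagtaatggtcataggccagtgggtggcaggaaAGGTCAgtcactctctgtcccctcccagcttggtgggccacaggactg
The half-sites begin 87 bases (minus strand) and 48 bases (plus strand) before the start. AGGTCA on either strand was present in 4 of 16 annotated 300-base windows of the 10 genes, belonging to Pparg, Rxra and Rxrg, and in 16.3% of the 32851 windows of all genes. TATAAA was present in 1 of the 16 (Pparg) against 13.6% of all windows. TGACG, the CRE half-site, was present in 5 of the 16 against 20.8%. A match of letters is not evidence of binding, and the counts do not show which start was used.

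Among the PPAR genes, Ppara, the receptor that drives fatty acid oxidation, had 2.15, 1.63 and 2.0001 CPM in WT and 2.89, 2.62 and 2.34 CPM in KO. All KO libraries were above all WT libraries. With 21 to 66 counts per library, the log2 fold change of 0.40 had a 95% interval of -0.067 to 0.86 and did not pass (edgeR adjusted p = 0.194). Ppard, the most abundant PPAR gene here, had 12.8, 11.97 and 12.1 CPM in WT and 13.8, 12.8 and 12.1 CPM in KO. These ranges overlap, and the log2 fold change was 0.061 (95% interval -0.15 to 0.27). Pparg, the adipocyte and macrophage receptor, had 1.997, 3.26 and 2.22 CPM in WT and 2.71, 2.34 and 2.76 CPM in KO. WT replicate 2 was the highest of the 6, and without WT replicate 1 the log2 fold change of 0.12 (95% interval -0.38 to 0.61) turned to -0.038. Ppard made up 65.6% ± 3.71 of the summed PPAR level per kilobase in WT and 63.5% ± 1.32 in KO (exact permutation p = 0.5). Ppara made up 11.2% ± 1.83 and 14.01% ± 0.83 (exact permutation p = 0.1, the smallest possible). With the merged exon length Ppard made up 55.0% in WT and 52.4% in KO, and with counts not divided by length 73.6% and 71.2%.

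The LXR genes were measured more precisely. Nr1h2, the broadly expressed LXR beta gene, had 64.3, 70.9 and 68.6 CPM in WT and 61.05, 70.9 and 64.4 CPM in KO. The genotypes overlapped, and the log2 fold change was -0.051 with a 95% interval of -0.20 to 0.095. Nr1h3, the LXR alpha gene of liver and macrophages, had 14.2, 15.4 and 15.2 CPM in WT and 16.4, 15.1 and 16.1 CPM in KO, a log2 fold change of 0.092 (95% interval -0.095 to 0.28). The interval of Nr1h2 leaves out a decrease as large as the 0.26 by which Rxra fell, while that of Nr1h3 reaches an increase of that size. Nr1h2 made up 81.9% ± 0.17 of the summed LXR level per kilobase in WT and 80.3% ± 1.83 in KO (exact permutation p = 0.4).

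**Figure D2:**
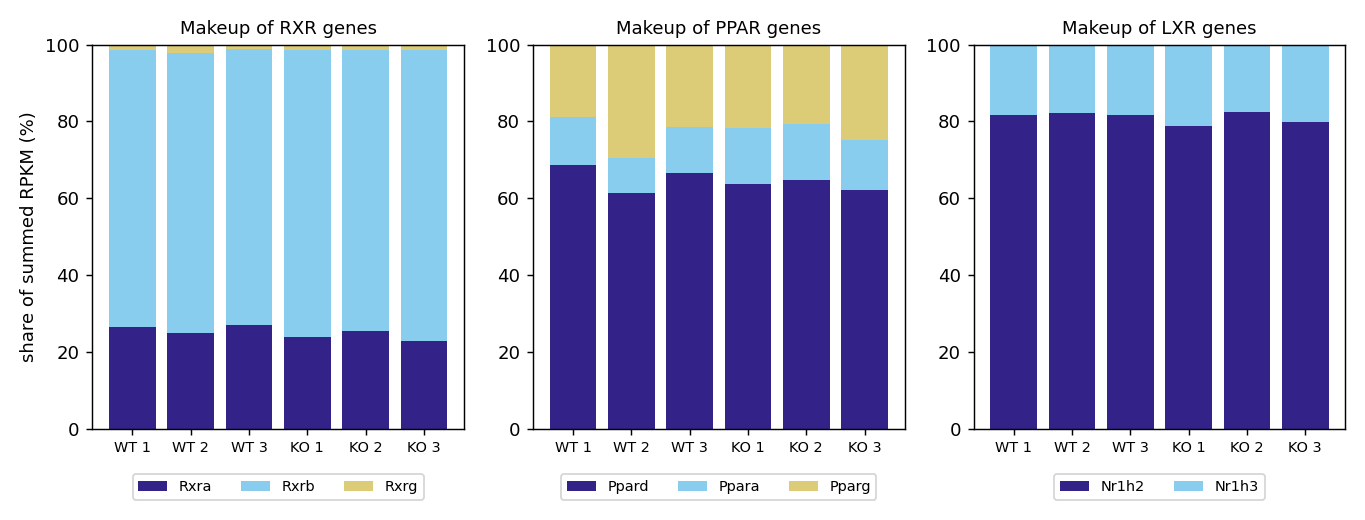
Share of each gene in the summed RPKM of its receptor family, in percent, for each of the 6 libraries. Rxrb, Ppard and Nr1h2 are the main members in every library, at 72.3%, 65.6% and 81.9% of their families in WT.

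Tbp encodes the protein that Edf1 is described to bridge to activators. It had 38.7, 36.5 and 41.9 CPM in WT and 34.7, 33.8 and 33.7 CPM in KO, with no overlap. Its log2 fold change of -0.20 (SE 0.071, 95% interval -0.35 to -0.046) lay just outside the threshold, with an adjusted p-value of 0.0543 by edgeR. It passed without WT replicate 2 (-0.24, edgeR adjusted p = 0.00794), with limma voom (-0.20, adjusted p-value 0.0459) and after a correction for GC content and length (-0.35, edgeR adjusted p = 0.00085). Exons of Pdcd2 on the opposite strand cover 19% of the exon bases of Tbp. Whether strand was used in counting is not given in the sources used here, so reads of the pair may not be separated. Pdcd2 itself had a log2 fold change of -0.015 (edgeR adjusted p = 0.913).

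Creb1, the cyclic AMP response factor, had 23.3, 14.5 and 20.7 CPM in WT and 27.1, 21.6 and 24.1 CPM in KO. WT replicate 2 was the lowest library by a wide margin, and KO replicate 2 lay below WT replicate 1. The log2 fold change of 0.29 (95% interval -0.015 to 0.59, edgeR adjusted p = 0.15) did not pass. It was 0.13 without WT replicate 2 (edgeR adjusted p = 0.298) and 0.15 with the GC and length correction (edgeR adjusted p = 0.29), and it was 0.45 and called higher without WT replicate 1 (edgeR adjusted p = 0.0499).

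**Figure D3:**
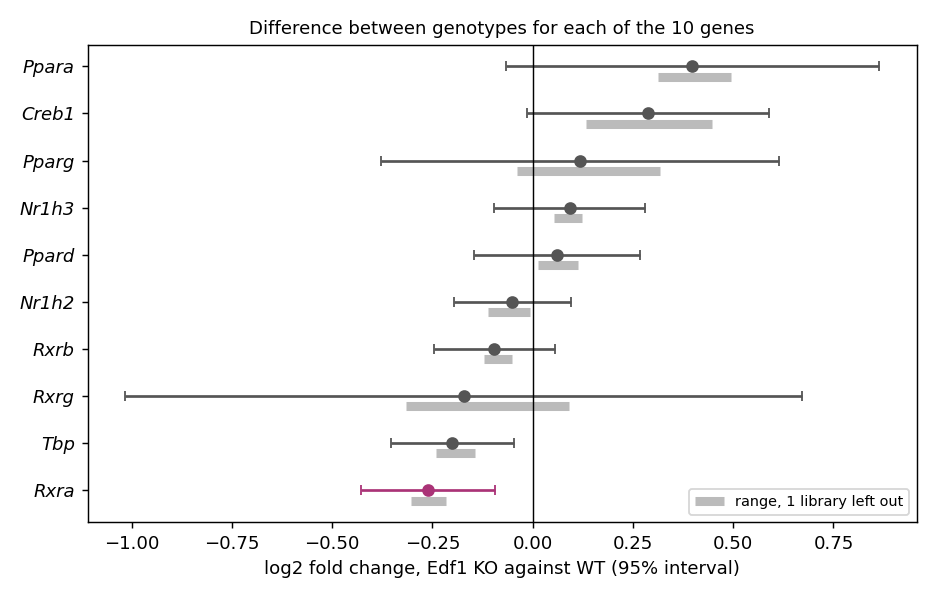
Log2 fold change of KO against WT for each of the 10 genes with its 95% interval (points and whiskers; purple, passed the test), and the range over the 6 fits that each left out 1 library (grey bars). Intervals of Rxra (-0.43 to -0.093) and Tbp (-0.35 to -0.046) lie below 0, and the other 8 include 0.

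Levels of different genes were compared as RPKM, that is CPM per kilobase of the longest annotated transcript. The order in WT was Nr1h2 (33.99 ± 1.68), Rxrb (14.1 ± 0.83), Nr1h3 (7.52 ± 0.32), Rxra (5.08 ± 0.058), Ppard (3.30 ± 0.12), Tbp (3.05 ± 0.21), Creb1 (2.33 ± 0.54), Pparg (1.17 ± 0.32), Ppara (0.564 ± 0.078) and Rxrg (0.307 ± 0.12) RPKM (SD, n = 3). Ppard and Tbp overlapped in WT, and Tbp and Creb1 overlapped in KO, where Creb1 took the higher mean. No other neighbours overlapped within WT. The place of Tbp rests on the transcript used: the longest spans 12794 bases and the next coding transcript 2067 bases, and with the latter Tbp had 18.9 ± 1.31 RPKM in WT. Creb1 likewise had 3.89 ± 0.90 RPKM over its 5009-base transcript. Over their second-longest coding transcripts, Nr1h3 had 8.28 ± 0.35, Rxra 7.75 ± 0.089 and Ppard 7.70 ± 0.28 RPKM in WT. The gaps between these genes therefore also rest on the transcript used.

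Of 12880 non-member genes with a mean log2 CPM of at least 1, Cmbl, Rgs12 and Clp1 had the highest Pearson correlations with Rxra over the 6 libraries, at 0.998, 0.995 and 0.994. There were 186 genes above 0.95. The libraries form 2 genotypes, so any gene that differs between them can score highly, and these values only describe a like pattern.

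Genes that respond to the receptors were examined next, beginning with the PPARs. In the list of PPAR targets, 3 of 32 tested genes rose and 7 fell, and the median log2 fold change was -0.0091. The share called, 31.2%, was near the background of 26.9%. Cd36, a fatty acid transporter and scavenger receptor, had 45.02, 43.2 and 48.1 CPM in WT and 78.6, 78.8 and 82.5 CPM in KO. All KO libraries were far above WT, a log2 fold change of 0.81 (± 0.06 SE, edgeR adjusted p = 1.44e-06). Vnn1, a pantetheinase, rose by 0.77 (SE 0.16) on the log2 scale.

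Plin5, a droplet coat protein, had 12.5, 13.9 and 10.3 CPM in WT and 5.66, 6.52 and 7.58 CPM in KO, a log2 fold change of -0.87 (± 0.14 SE, edgeR adjusted p = 0.000692). Cidea, which acts in droplet fusion, fell by 0.82 (SE 0.14), and Lpl, the lipoprotein lipase gene, fell by 0.42 (SE 0.067). Plin2, the ubiquitous droplet coat, fell by 0.28 (SE 0.052) and is named here after its value was seen. Angptl4, Pdk4 and Cpt1a, often used as readouts of PPAR activity, had log2 fold changes of 0.15, 0.17 and 0.056 and did not pass (adjusted p-values 0.307, 0.14 and 0.48 by edgeR). For Angptl4 and Pdk4 every KO library was nevertheless above every WT library, while Cpt1a overlapped. All 3 genes too were singled out after their values were seen. Without WT replicate 2 the count of risen PPAR targets was 5, and with the GC and length correction 6 rose and 6 fell.

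The list of LXR targets had 1 risen and 6 fallen of 14 tested genes, with a median log2 fold change of -0.17. The share that fell was 42.9%, against a background of 14.2%. In the 6 fits that each left out 1 library, 4 to 8 genes of the list were called lower and 1 higher. Apoc1, a lipoprotein component, had 8.36, 6.76 and 5.78 CPM in WT and 2.34, 2.51 and 2.51 CPM in KO, a log2 fold change of -1.51 (± 0.18 SE, edgeR adjusted p = 5.74e-05). Mylip, the ligase that degrades the LDL receptor, had 22.8, 20.3 and 23.7 CPM in WT and 15.2, 16.4 and 15.6 CPM in KO, a log2 fold change of -0.51 (SE 0.086). Abcg1, a cholesterol exporter, had 28.2, 31.0003 and 29.8 CPM in WT and 22.8, 19.3 and 21.1 CPM in KO, a log2 fold change of -0.49 (SE 0.083). None of these groups overlapped, and the calls held in all 14 alternative fits at the 0.05 threshold. Arl4c, a small GTPase gene, rose by 0.36 (SE 0.062).

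Apoe, the most abundant gene of the list, fell by 0.41 on the log2 scale (± 0.0585 SE, edgeR adjusted p = 0.000216). Abca1, the cholesterol exporter often paired with Abcg1, had a log2 fold change of 0.11 (edgeR adjusted p = 0.418), and Srebf1, which encodes the lipogenic factor SREBP1, had -0.039 (edgeR adjusted p = 0.545). Fasn, the fatty acid synthase gene, fell by 0.18 (SE 0.057), and Mertk, a receptor of phagocytes, fell by 0.30 (SE 0.082). Both of these calls were lost without WT replicate 3 or KO replicate 2 or 3, that of Fasn also without KO replicate 1 and that of Mertk also without WT replicate 1. These 5 genes were chosen after their values were seen. The listed targets of the receptors therefore did not move alike. Apoe, Apoc1 and Abcg1 are also expressed by microglia, and most markers of microglia and macrophages moved in the same direction. Of these 12 markers, 10 were called lower, against 14.2% of all tested genes. Tmem119 (log2 fold change -0.26, edgeR adjusted p = 0.0504) and Ptprc (0.0086, edgeR adjusted p = 0.948) did not pass. The summed level of the 12 was 1346 to 1384 CPM in WT and 944 to 988 CPM in KO, with none of the 12 at 0. The part of these cells in the LXR target result was not tested. Nr1h3 itself, at 14.9 ± 0.63 CPM in WT and 15.8 ± 0.66 CPM in KO, was not among the genes that fell. Of the 6 adipocyte markers, 5 were at or under 3 counts in all libraries (Adipoq, Plin1, Lep, Cidec and Retn), and their summed level with Fabp4 was 2.16 to 3.81 CPM in WT and 3.01 to 3.79 CPM in KO. Fibroblast markers were 77.0 to 96.8 CPM in WT and 134 to 179 CPM in KO. Of the 8 tested, 5 were called higher, against 12.7% of all tested genes, and their part was not tested either.

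Genes that supply or carry ligands for the receptors were examined next. Of 13 tested, 5 rose and 1 fell, a share called of 46.2% against a background of 26.9%. Aldh1a1, an enzyme of retinoic acid synthesis, had 35.5, 29.7 and 30.98 CPM in WT and 72.4, 82.1 and 64.5 CPM in KO, a log2 fold change of 1.17 (± 0.093 SE, edgeR adjusted p = 2.37e-06). All KO libraries were far above all WT libraries. Of the 31-mers of Aldh1a1, 12% also occur in another gene, Aldh1a7. Ch25h, which makes an oxysterol ligand of LXR, had a log2 fold change of 0.37 (SE 0.11), and Cyp27a1, another oxysterol-forming enzyme gene, had -0.47 (SE 0.15). These calls were weak: that of Ch25h was lost without WT replicate 1 or 3 and without any 1 of the KO replicates, and that of Cyp27a1 in the same fits, by DESeq2 and with the GC and length correction. Fabp7, a fatty acid carrier of radial glia, rose by 0.20 (SE 0.047), and Cyp46a1, the enzyme that makes the main oxysterol of neurons, by 0.37 (SE 0.094). Both were named after their values were seen, and the call of Cyp46a1 was lost without WT replicate 1 or KO replicate 3. The count of risen genes was 3 without WT replicate 1 or KO replicate 3, and that of fallen genes 0 without WT replicate 3 or any KO replicate.

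Of 10 tested genes for the remaining dimer partners of RXR, 2 rose and 2 fell, a share called of 40% against a background of 26.9%. Rarg, the retinoic acid receptor gamma gene, had 19.8, 19.7 and 18.2 CPM in WT and 23.2, 22.9 and 23.1 CPM in KO, a log2 fold change of 0.26 (± 0.077 SE, edgeR adjusted p = 0.0237). Thra, the main thyroid hormone receptor gene of the brain, had 330, 348 and 315 CPM in WT and 288, 297 and 291 CPM in KO, a log2 fold change of -0.18 (± 0.049 SE, edgeR adjusted p = 0.0163). Exons of Thra overlap Nr1d1 on the opposite strand over 5.7% of its exon bases. The call of Rarg was lost without WT replicate 1 or 3 or any KO replicate, and that of Thra without WT replicate 1, KO replicate 1 or KO replicate 3. The other called genes, named after their values were seen, were Rarb at 0.35 (SE 0.12) and Nr1i2, the xenobiotic receptor PXR, at -1.83 (SE 0.49) with 0.916 ± 0.43 CPM in WT and 0.225 ± 0.11 CPM in KO (SD, n = 3). Rarb shares 34.1% of its exon bases with Top2b on the opposite strand, and its call was lost by DESeq2 and without WT replicate 2 or 3 or KO replicate 2 or 3. That of Nr1i2 was lost without KO replicate 2. The counts of this list were 0 to 1 risen in the 6 fits that each left out 1 library, and 1 fallen without WT replicate 1 or any KO replicate.

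Among the other 20 tested nuclear receptors, 3 rose and 0 fell by edgeR. The share called in all, 15%, was below the background of 26.9%. The share higher, also 15%, was near its background of 12.7%, and 0% were lower against 14.2%. With the GC and length correction 5 were called higher and 1 lower. At an unadjusted p under 0.05 5 were higher and 2 lower, and DESeq2 called 2 higher and 0 lower. Nr2f2, which encodes COUP-TFII, rose by 0.28 (SE 0.068), Nr1d2, a circadian repressor, by 0.24 (SE 0.075) and Nr2e1, the neural stem cell factor Tlx, by 0.16 (SE 0.055) on the log2 scale. The calls were lost without WT replicate 1 for Nr2f2 and without any KO replicate for Nr1d2. That of Nr2e1 was lost without WT replicate 1 or any KO replicate, by DESeq2, and with no filter beyond 1 count. The count of risen genes was 1 in each fit without WT replicate 1 or a KO replicate, and 1 gene was called lower without KO replicate 2.

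Few coregulators of the receptors passed the test. Of 21 tested genes, 1 was called lower and 0 higher, or 4.76% against a background of 26.9%, and the median log2 fold change was 0.014. By DESeq2 the counts were also 1 lower and 0 higher, and at an unadjusted p under 0.05 3 were lower and 5 higher by edgeR. The gene called was Hdac3, the deacetylase of the corepressor complex, with 117, 123 and 124 CPM in WT and 105, 112 and 108 CPM in KO (log2 fold change -0.16, SE 0.053, edgeR adjusted p = 0.0378). This call was lost without WT replicate 1 or 3 or any KO replicate. Without WT replicate 2 there were 3 called lower, as with the GC and length correction, and without WT replicate 3 there were 4 called higher. The coactivators Ncoa1 and Med1 had log2 fold changes of 0.014 and -0.20 (adjusted p-values 0.906 and 0.0596 by edgeR), chosen after their values were seen.

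For TBP, the partner proteins of its complexes were examined. Of 39 tested genes for TFIID subunits and other basal factors, 1 rose and 5 fell, 15.4% in all against a background of 26.9%, with a median log2 fold change of -0.078. Taf9, a histone-fold subunit, had 159, 175 and 164 CPM in WT and 112, 121 and 115 CPM in KO, a log2 fold change of -0.51 (± 0.055 SE, edgeR adjusted p = 2.60e-05). It shares 73.8% of its exon bases with Ak6 on the same strand, so its counts cannot be assigned with certainty. Taf12 had 27.3, 30.1 and 28.2 CPM in WT and 24.3, 22.4 and 23.9 CPM in KO (log2 fold change -0.27, SE 0.076), and Gtf2h2, a TFIIH subunit gene, had -0.32 (SE 0.09). Taf6 fell by 0.21 (SE 0.056) and Taf1b by 0.23 (SE 0.079), both named after their values were seen. Exons of Ap4m1 on the opposite strand cover 26.5% of the exon bases of Taf6. The call of Taf6 was lost without KO replicate 1 or 3, and Taf1b was called in 5 of 14 alternative fits. Taf8 rose by 0.35 (SE 0.083). Taf9 and Taf8 kept their calls in every fit that left out 1 library. The call of Taf12 was lost without KO replicate 2 or 3, and that of Gtf2h2 without any 1 of the KO replicates. The count of fallen genes was 2, 3 and 1 without KO replicates 1, 2 and 3, and there were 2 risen genes without WT replicate 2.

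**Figure D4:**
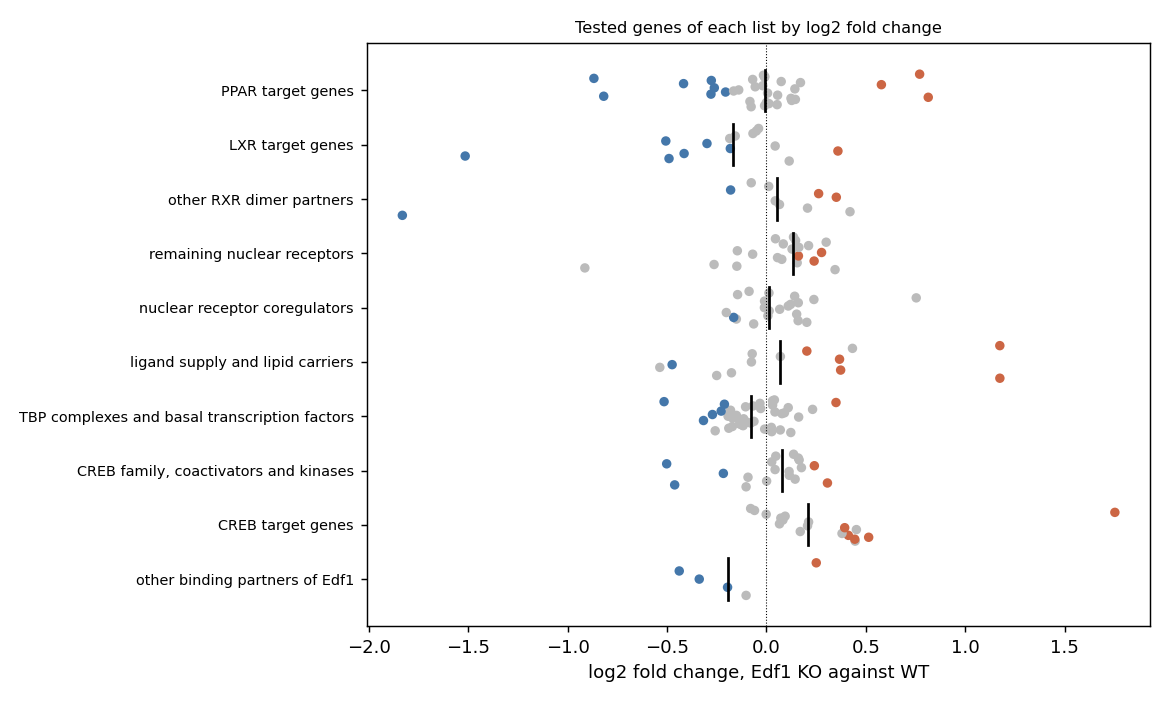
Log2 fold change of KO against WT for every tested gene of the 10 lists (points; orange, higher and blue, lower at an adjusted p-value under 0.05; grey, not passed; black bar, median). In the coregulator and TBP lists 1 of 21 and 6 of 39 genes are called, while 6 of 14 LXR targets are called lower and 5 of 18 CREB targets higher. Over all tested genes 26.9% are called, 14.2% lower and 12.7% higher.

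Of 18 tested genes for CREB relatives, coactivators and kinases, 2 rose and 3 fell, a share called of 27.8% that is near the background of 26.9%. Prkar2b, a regulatory subunit of protein kinase A, had 24.6, 27.4 and 26.97 CPM in WT and 17.4, 19.4 and 18.7 CPM in KO, a log2 fold change of -0.50 (± 0.082 SE, edgeR adjusted p = 0.000652). Camk4, a kinase that phosphorylates CREB1, fell by 0.46 (SE 0.11), and Prkaca, a catalytic subunit of protein kinase A, fell by 0.22 (SE 0.051). These 3 calls held in all 14 alternative fits. Crem, a close relative of Creb1, had 19.1, 15.0 and 16.4 CPM in WT and 21.15, 21.06 and 21.03 CPM in KO (log2 fold change 0.31, SE 0.094), and Prkar2a had 0.24 (SE 0.08). The call of Crem was lost without WT replicate 3 or any KO replicate, and that of Prkar2a without any 1 library. Hence 0 risen genes were left without WT replicate 3 or a KO replicate, and 1 without WT replicate 1.

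Of 18 tested CREB targets, 5 rose and 0 fell, with a median log2 fold change of 0.21. The share called in all, 27.8%, was near the background of 26.9%. All called genes were higher, against a background of 12.7% higher and 14.2% lower. DESeq2 gave the same counts of 5 and 0, and at an unadjusted p under 0.05 7 were higher and 0 lower by edgeR. Scg2, which encodes the granin secretogranin II, had 1.47, 0.70 and 0.92 CPM in WT and 5.16, 2.95 and 3.19 CPM in KO, a log2 fold change of 1.75 (± 0.31 SE, edgeR adjusted p = 0.00106). Dusp1, a phosphatase of MAP kinases, had 17.1, 16.2 and 13.5 CPM in WT and 19.5, 24.5 and 22.9 CPM in KO, a log2 fold change of 0.51 (SE 0.11). Btg2, an antiproliferative gene, had 12.997, 12.2 and 15.2 CPM in WT and 19.4, 17.4 and 18.4 CPM in KO, a log2 fold change of 0.44 (SE 0.098). In all 3 genes every KO library exceeded every WT library. The others were the AP-1 genes Fos and Junb, at 0.41 (SE 0.10) and 0.39 (SE 0.095), named after their values were seen. Exons of Prdx2 on the opposite strand cover 7.52% of the exon bases of Junb. Many of these are also immediate early genes that serum and stress factors control. The call of Fos was lost without KO replicate 1, and Scg2 had too few counts for the filter at a mean of 50. The pituitary markers Prl and Gh were at 0 in all WT libraries, and the 9 summed pituitary markers were at 17.2 to 20.4 CPM in WT and 28.96 to 35.5 CPM in KO. Of the 4 that were tested, 3 were called higher and 1, Lhb, was called lower (14.7 ± 1.30 CPM in WT and 5.59 ± 0.53 CPM in KO, SD, n = 3). Endocrine cells are known to express Scg2, and the part of such cells in its value was not tested.

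Upstream sequences of 4 of these 5 genes are shown, because the recognition sequence of CREB1 can be read in them. Each holds the 250 bases before the annotated start from RefSeq on GRCm38.p6, 5′ to 3′ on the gene's strand. They lie at chr1:79440027-79440276 (Scg2, minus strand), chr1:134079156-134079405 (Btg2, minus strand), chr17:26508473-26508722 (Dusp1, minus strand) and chr12:85473640-85473889 (Fos, plus strand). Capitals mark TGACGTCA (the full CRE), TGACG (its half-site), TATAAA and AGGTCA, on either strand; a full CRE contains TGACG on both strands.
Scg2: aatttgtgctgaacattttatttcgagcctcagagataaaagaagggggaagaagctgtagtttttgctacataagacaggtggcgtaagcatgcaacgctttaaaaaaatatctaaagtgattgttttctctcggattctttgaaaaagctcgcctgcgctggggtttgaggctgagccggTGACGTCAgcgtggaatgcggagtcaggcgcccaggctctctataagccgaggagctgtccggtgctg
Btg2: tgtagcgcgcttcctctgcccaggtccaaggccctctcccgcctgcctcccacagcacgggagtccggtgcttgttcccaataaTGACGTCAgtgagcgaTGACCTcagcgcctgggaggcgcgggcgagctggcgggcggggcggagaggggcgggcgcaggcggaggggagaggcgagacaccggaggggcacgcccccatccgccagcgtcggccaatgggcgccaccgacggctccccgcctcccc
Dusp1: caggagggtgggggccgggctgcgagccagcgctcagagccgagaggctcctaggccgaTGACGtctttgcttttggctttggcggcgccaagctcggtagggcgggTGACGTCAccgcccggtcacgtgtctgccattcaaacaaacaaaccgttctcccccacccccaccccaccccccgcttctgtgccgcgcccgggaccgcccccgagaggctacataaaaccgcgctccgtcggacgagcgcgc
Fos: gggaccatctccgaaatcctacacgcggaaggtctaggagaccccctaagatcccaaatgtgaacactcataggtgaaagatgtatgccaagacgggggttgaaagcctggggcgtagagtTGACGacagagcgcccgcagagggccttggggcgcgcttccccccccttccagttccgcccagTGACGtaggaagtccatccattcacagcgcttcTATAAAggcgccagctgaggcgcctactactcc
The full element begins 68 bases before the start in Scg2, 166 in Btg2 and 143 in Dusp1, and Fos has half-sites that begin 129 and 66 bases before its start and a TATAAA that begins 33 bases before it. The 18 listed targets found in RefSeq have 28 windows. A full CRE was present in 5 of these windows, belonging to 5 genes, and in 1.79% of all windows. Of those 5 genes, 3 were tested and all 3 rose. Of the 10 tested genes with only a half-site, 2 rose, Fos and Junb. Of the 2 tested genes with neither, 0 rose. Of the 3 tested genes without a RefSeq window (Sik1, Vgf and Gem), 0 rose. Over all tested genes 12.7% were called higher. The classes hold few genes, and a link between the element and the change was not tested. TGACG alone occurs in 20.8% of all windows. The targets were listed because CREB1 is known to act on many of them, so the presence of the element is not a separate result.

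Last, other proteins reported to bind Edf1 were considered. Of 5 tested genes, 1 rose and 3 fell, a share called of 80% against a background of 26.9%. The share that fell was 60%, against 14.2%, but the list is small and all 3 fallen genes encode calmodulin. Calm3 and Calm2 encode calmodulin, the calcium-binding protein to which Edf1 has been described to bind. Calm3 had 744, 860 and 687 CPM in WT and 563, 571 and 555 CPM in KO, a log2 fold change of -0.44 (± 0.068 SE, edgeR adjusted p = 0.000458). Calm2 had 405, 454 and 385 CPM in WT and 336, 318 and 331 CPM in KO, a log2 fold change of -0.34 (SE 0.059). WT replicate 2 was the highest library for both, and both calls held in all 14 alternative fits. Of their 31-mers, 5.4% (Calm3) and 23% (Calm2) occur in another annotated gene, so some reads may be shared with other loci. Jun, the AP-1 subunit gene, had 58.4, 60.8 and 60.2 CPM in WT and 68.2, 76.6 and 68.4 CPM in KO (log2 fold change 0.25, SE 0.062), a call that was lost without KO replicate 2. Atf1, a close relative of Creb1, had a log2 fold change of -0.10 and did not pass (edgeR adjusted p = 0.426).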

How the data were processed

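RNA was sequenced from 3 WT and 3 Edf1 KO cultures, and the table the authors deposited holds whole-number read counts per gene symbol, 1 column per library, with 0 rows that name no gene. The submitters' processing notes name FastQC 0.11.2, cutadapt 1.11, HISAT2 2.1.0 and GRCm38. The counting program, annotation and use of strand are not given in the sources used here.

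Counts were filtered with filterByExpr, scaled with TMM and tested with edgeR 4.0.16 (quasi-likelihood, R 4.3.3) on all 6 libraries, with Benjamini-Hochberg adjustment over 14243 genes and a threshold of 0.05. SEs are the log2 fold change over the square root of F. DESeq2 1.42.0, limma 3.58.1 voom and the alternatives of the closing section were also run, and the 3 tools were tested on simulated data. Transcript lengths came from GENCODE M21. GC content and length were known for 99% of tested genes.

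The members and lists were chosen with earlier results of these data known, and list genes come from general knowledge. Besides the members and Edf1, up to 3 genes per list and direction were named: the largest changes among those called, with a mean log2 CPM of at least 1 and no overlap. Others are marked as chosen after their values were seen. Some genes that the rule names are not reported here.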

Additional observations from a re-analysis of the deposited data

How the results depend on the processing

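The settings varied were the scaling, the filter on low counts, the test, the threshold, the replicate number as a block, a correction for GC content and length, each library left out, and, for levels per kilobase, the transcript length (the APPRIS principal transcript was added after the data were seen). At an adjusted p-value under 0.01, 2213 genes were changed over the whole table and 0 of the 10 genes were called lower, since Rxra (-0.26) no longer passed. With limma voom 2 were called lower, Tbp (-0.20) being the added one, and the GC and length correction also gave 2, with Tbp at -0.35. Across the fits that each left out 1 library, 0 to 2 of the 10 were called lower and 0 to 1 higher. The log2 fold changes there ran from -0.30 to -0.22 for Rxra, -0.24 to -0.14 for Tbp, 0.13 to 0.45 for Creb1, -0.038 to 0.32 for Pparg and -0.32 to 0.090 for Rxrg. Pparg was below 0 without WT replicate 1 and Rxrg above 0 without WT replicate 2, and the cause was not tested. The other 5 genes kept their direction and did not pass in any alternative that tested them. With the replicate number as a block, 1 of the 10 was called higher, Creb1 at 0.32 (adjusted p-value 0.0251 by edgeR), and 4065 genes were changed over the whole table against 3833. The deviations of same-numbered libraries had correlations of 0.069, 0.060 and 0.037, so no pairing was assumed, although each of the 6 libraries correlated best with its own number. The widest 95% intervals were those of Rxrg, Pparg and Ppara, which had the fewest counts.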
